A study of Canis lupus familiaris with 12 samples.

Results

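Canine DUXC was set against its isoform DUXC-ALT in immortalized canine myoblasts, the dividing precursor cells of skeletal muscle kept as a cell line. The comparison used the 3 DUXC and the 3 DUXC-ALT libraries, 6 of the 12 in the series, with the 3 luciferase libraries as a reference level. All cells carried the lentiviral vector pCW57.1, which switches on its insert in the presence of doxycycline, and the inserts used here were DUXC, DUXC-ALT and luciferase. According to the protocol, every group received doxycycline at 1 ug/ml over 24 h. The treatment tag names doxycycline for the DUXC and DUXC-ALT samples and its absence for luciferase, so only the level relative to luciferase carries that difference. The series asks how the canine isoforms compare in function with human DUX4.

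Double homeobox (DUX) proteins are transcription factors that bind DNA through a pair of homeodomains. DUX4 is known for a burst of activity in the early human embryo and for damage to muscle when it is expressed there, in facioscapulohumeral muscular dystrophy. It arose by retrotransposition from an ancestor of the intron-containing gene that dogs keep as DUXC. DUX4 is known to activate germline and early embryonic genes and also repeat elements, and the data here hold counts of both genes and repeats.

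Gene counts per library were 18573006, 18518493 and 16681574 for DUXC and 19992969, 17300128 and 18685216 for DUXC-ALT. Repeat counts were 1043511, 1074349 and 818926 for DUXC and 645380, 609109 and 524876 for DUXC-ALT. The tables as used here pair no row with a gene or repeat name, so rows are cited by their number in the DUXC table, neither the tissue markers nor the inserted factors could be looked up, and no sequence can be shown. The amount of each factor made and its activity per molecule cannot be told apart. Rows of the DUXC and DUXC-ALT tables were joined where the 3 luciferase counts summed to at least 7, because such rows occur in both tables in the same order with identical luciferase counts. This joined 14736 gene rows and 654 repeat rows, which held 99.7% of gene counts in the DUXC libraries and 99.99% in the DUXC-ALT libraries. Replicates varied little, with a biological coefficient of variation across gene rows of 3.13% for DUXC and 2.04% for DUXC-ALT. Nothing in the labels says that replicates were separate cultures, so all p-values here measure the spread between libraries, which may be technical.

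DUXC libraries contained more detectable gene rows than DUXC-ALT libraries. At a level of at least 1 count for each 1000000 gene counts (CPM), 12909, 12853 and 12909 rows were detected with DUXC against 11992, 11971 and 11985 with DUXC-ALT, a mean difference of 907.7 rows. Luciferase libraries lay between them, at 12157, 12110 and 12141 rows. At 10 CPM or more the means were 9075 ± 15.5 under DUXC and 8754 ± 9.71 under DUXC-ALT, and at 100 CPM or more 1994 ± 6.56 and 1943 ± 5.29 (SD, n = 3). At these higher levels luciferase lay below both isoforms, at 8696 ± 25.4 and 1795 ± 7.21 rows (SD, n = 3). In each of these counts the 3 DUXC libraries lay above the 3 DUXC-ALT libraries. The 2-sided exact permutation test returned p = 0.1 each time, the minimum for 3 libraries against 3, or 0.122 adjusted over 11 such tests. The 100 rows with the most counts took 27.8% ± 0.0885 of a DUXC library and 28.5% ± 0.104 of a DUXC-ALT library, against 31.6% ± 0.0494 under luciferase (SD, n = 3).

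Most tested gene rows differed between the isoforms, but the largest differences ran 1 way. Of 14736 joined rows, 1588 were too low to test. Of the 13148 rows that passed the filter on low counts, 38.2% were higher and 38.6% lower with DUXC at an adjusted p under 0.05 (edgeR quasi-likelihood test), a balance that the scaling on genes favours. A test against a minimum difference of 2-fold separated the directions, with 1406 rows (10.7%) higher and 219 rows (1.67%) lower with DUXC by more than 2-fold. Among rows past the first test, 730 were higher and 14 lower with DUXC by more than 4-fold. Past 8-fold the numbers were 380 and 0, past 32-fold 131 and 0, and past 128-fold 49 and 0. Rows that passed the filter on low counts through 1 isoform alone are among them, so these numbers are only descriptions. The count of 0 rows lower by more than 8-fold was also found at an unadjusted p under 0.05 in edgeR. DESeq2 gave 0 such rows at an adjusted p under 0.05 and called 384 rows higher by that much. Counted by groups that do not overlap in CPM, 37.3% of tested rows were higher and 40.8% lower with DUXC.

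**Figure D1:**
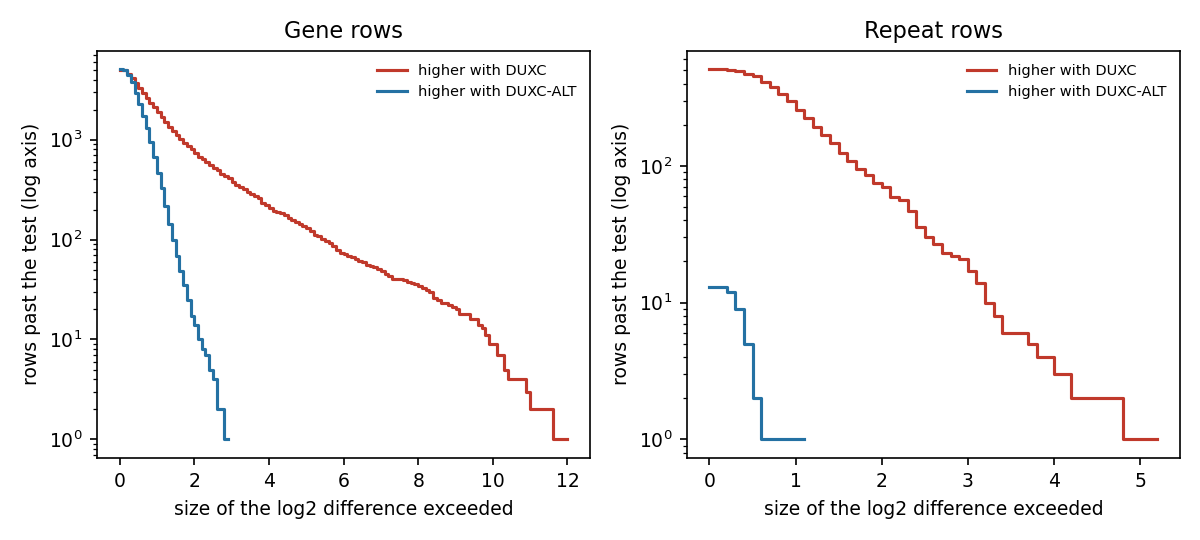
Number of gene rows (left) and repeat rows (right) past the edgeR test whose log2 difference exceeds the size on the horizontal axis, on a log vertical axis, for rows higher with DUXC and rows higher with DUXC-ALT. For gene rows the curves start at 5026 and 5078 rows, and the DUXC-ALT curve ends before a log2 difference of 3 while 380 rows pass 3 in favour of DUXC.

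The share of rows that differed by more than 2-fold varied with the level in luciferase cells, although such rows were most numerous from 10 to 100 CPM. Luciferase libraries took no part in the test, and their mean CPM, which is not corrected for gene length, was used to order the rows. Of 1055 tested rows below 1 CPM in luciferase cells, 436 (41.3%) were higher with DUXC by more than 2-fold and 3 were lower. Of 3397 rows from 1 to 10 CPM, 459 (13.5%) were higher and 46 lower by that much. Of 6902 rows from 10 to 100 CPM, 466 (6.75%) were higher and 117 (1.70%) lower. Of 1794 rows at 100 CPM or more, 45 (2.51%) were higher and 53 (2.95%) lower. The median log2 difference moved from 1.24 in the lowest band through 0.16 and -0.08 to -0.18 in the highest, and was -0.01 over all tested rows. The share of rows higher with DUXC was thus smaller from band to band, and in the highest band it was close to the share of rows lower with DUXC. In the bands below 10 CPM a row could pass the filter on low counts through the higher isoform alone, so their shares are only descriptions. Gene row 523, for example, had a mean of 1.75 CPM under luciferase and no DUXC-ALT read.

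**Figure D2:**
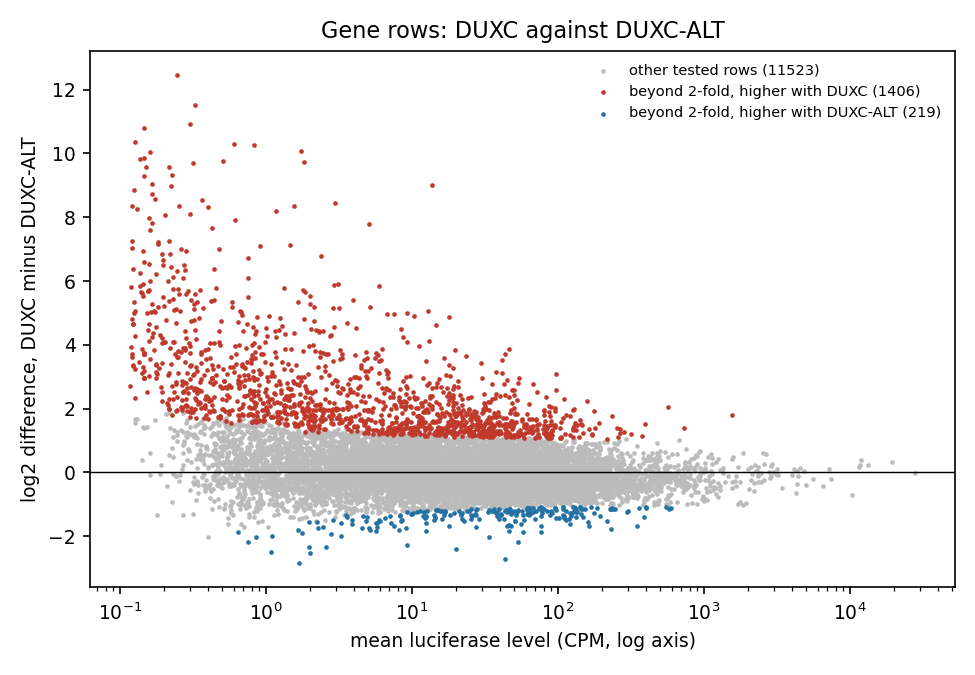
Log2 difference between DUXC and DUXC-ALT for 13148 tested gene rows against their mean luciferase level in CPM on a log axis, with the 1406 rows higher and the 219 rows lower with DUXC by more than 2-fold in colour. The differences in favour of DUXC reach 12.45 at low luciferase levels and shrink to the right, and those in favour of DUXC-ALT end at -2.84.

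The rows that differed by more than 2-fold are described next by their levels, with no further test, since the difference chose them. The 1406 rows higher with DUXC had a median of 18.3 CPM under DUXC, 2.90 CPM under DUXC-ALT and 3.69 CPM under luciferase. They took 9.77%, 9.86% and 9.73% of the gene counts of the DUXC libraries and 2.53%, 2.55% and 2.54% of those of the DUXC-ALT libraries, against 2.74% to 2.80% with luciferase. The share in the DUXC-ALT libraries thus lay slightly below that in the luciferase libraries. The 219 rows lower with DUXC had a median of 19.4 CPM under DUXC, 51.1 CPM under DUXC-ALT and 43.2 CPM under luciferase. Their share of gene counts was 0.783% to 0.793% with DUXC, 1.94% with DUXC-ALT and 1.57% to 1.60% with luciferase, so luciferase lay between the isoforms here.

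The rows with the largest difference in favour of DUXC were nearly silent with DUXC-ALT. Gene row 7814 stood at 717.6, 718.3 and 747.1 CPM in the DUXC libraries, at 0, 0.116 and 0.268 CPM in the DUXC-ALT libraries and at 0.174 to 0.291 CPM under luciferase. It had 39092 DUXC reads and 7 DUXC-ALT reads, a ratio per gene count of 5814 with an exact 95% interval of 2821 to 14461. This interval and those that follow cover counting error only. In log2 units the isoforms were 12.45 ± 0.08 (SE) apart (adjusted p = 3.57e-65, edgeR), or 13.57 without DUXC-ALT replicate 3, which held 5 of the 7 reads. Over all fits without 1 library the range was 11.84 to 13.57. Row 7814 passed the filter on low counts through DUXC alone, so its p is only a description. The same holds for any tested row under 0.5 CPM in every library of 1 isoform, which passed through the other isoform. DUXC-ALT and luciferase overlapped in row 7814, while DUXC lay far above both.

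The same arrangement held in gene rows 1540 and 8886. Row 1540 stood at 665.6, 692.9 and 687.8 CPM under DUXC and at 0.350, 0.116 and 0.214 CPM under DUXC-ALT, a ratio of 2936 (interval 1717 to 5515). Row 8886 stood at 489.4, 492.3 and 502.9 CPM under DUXC and at 0.400, 0.173 and 0.161 CPM under DUXC-ALT, a ratio of 1978 (interval 1178 to 3618). Their luciferase levels, 0.327 ± 0.135 and 0.301 ± 0.0749 CPM (SD, n = 3), overlapped those with DUXC-ALT. Gene rows 2673 and 2544 reached 643.7 ± 8.45 and 681.2 ± 28.6 CPM under DUXC. With DUXC-ALT they stood at 0.529 ± 0.465 and 0.554 ± 0.155 CPM (SD, n = 3), and their ratios were 1242 and 1230. In row 2673 the DUXC-ALT libraries held 11, 17 and 1 reads, so the low group was uneven there, and without DUXC-ALT replicate 2 the log2 difference moved from 10.28 to 11.00.

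Rows of moderate DUXC level were among the largest differences too. Gene row 5497 stood at 42.4, 44.9 and 43.9 CPM under DUXC and had 1 read over the 3 DUXC-ALT libraries, a ratio of 2446 with an exact interval of 439 to 96667. Gene row 1197 stood at 31.6, 30.7 and 33.3 CPM under DUXC and also had 1 DUXC-ALT read, a ratio of 1781 with an exact interval of 319 to 70393. The single read makes the upper end of both intervals uninformative. Without the library that held it, DUXC-ALT replicate 3 for row 5497 and replicate 2 for row 1197, the log2 differences moved from 10.81 to 12.64 and from 10.35 to 12.21.

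In gene row 523 luciferase lay between the isoforms. It stood at 7.38, 8.37 and 5.99 CPM under DUXC, at 1.71, 1.68 and 1.85 CPM under luciferase and at 0 in every DUXC-ALT library. Against 3 counts over the DUXC-ALT group, DUXC was at least 136-fold higher (edgeR adjusted p = 9.64e-28). Row 523 passed the filter on low counts through DUXC alone, so this p is only a description. It was 1 of 5 joined rows, picked out after their values were seen, without any DUXC-ALT read that held 1 CPM or more in all DUXC libraries. The others were rows 342, 343, 345 and 3679, which had 8, 9, 18 and 8 luciferase reads. Rows 342, 343 and 345 lie close together in row order, and whether they share reads was not tested. In all 5 rows DUXC replicate 2 was the highest, at 6.75 CPM in row 342 against 4.04 and 4.74 CPM in the others. With the groups exchanged the number of such rows was 0. With a looser limit of under 1 CPM in every library of the lower group, 462 joined rows reached 1 CPM in every DUXC library, and 41 did so in every DUXC-ALT library.

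**Figure D3:**
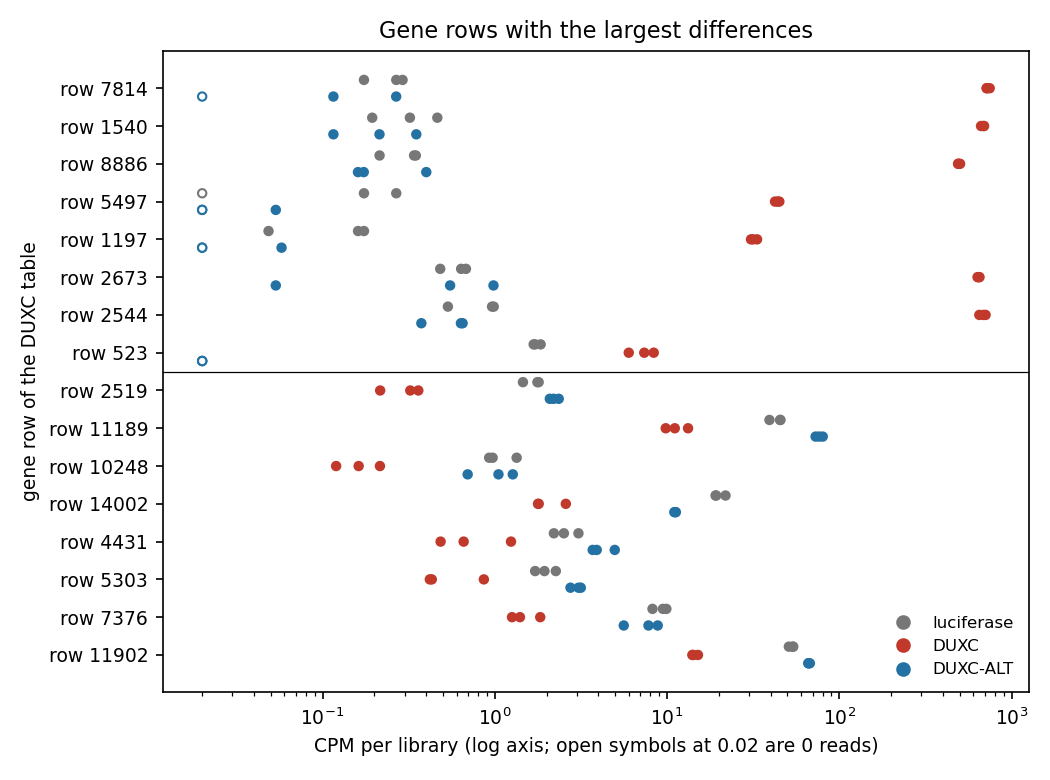
CPM in each library on a log axis for the 8 gene rows with the largest log2 difference in favour of DUXC (above the line) and the 8 in favour of DUXC-ALT (below), with open symbols at the left edge for libraries with 0 reads. Above the line the DUXC points stand apart from the other 6 points of a row, and below it DUXC is lowest in each of the 8 rows.

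In the opposite direction the differences were smaller. Gene row 2519 had the largest difference, at 0.323, 0.216 and 0.360 CPM under DUXC and 2.35, 2.197 and 2.09 CPM under DUXC-ALT, or -2.84 ± 0.33 (SE) in log2 units (adjusted p = 7.19e-12, edgeR). Row 2519 passed the filter on low counts through DUXC-ALT alone, so its p is only a description. Luciferase stood at 1.46 to 1.80 CPM in that row, between the isoforms and nearer to DUXC-ALT. Gene row 11189 stood at 13.2, 9.83 and 11.1 CPM under DUXC, at 80.2, 76.4 and 72.9 CPM under DUXC-ALT and at 39.3 to 45.5 CPM under luciferase. The 3 groups were separate in that row, with DUXC-ALT above and DUXC below luciferase.

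Gene row 11902 had the same order. It stood at 14.2, 15.1 and 14.0 CPM under DUXC, 67.5, 66.2 and 66.1 CPM under DUXC-ALT and 51.0 to 54.1 CPM under luciferase, or -2.18 ± 0.06 (SE) in log2 units (adjusted p = 8.01e-42, edgeR). Gene rows 4431 and 5303 followed it at lower levels, with 0.795 ± 0.397 and 0.571 ± 0.253 CPM under DUXC against 4.19 ± 0.682 and 2.99 ± 0.213 CPM under DUXC-ALT (SD, n = 3). Other rows were highest with luciferase. Gene row 14002 stood at 2.58, 1.78 and 1.80 CPM under DUXC, 11.3, 11.2 and 11.0 CPM under DUXC-ALT and 19.1 to 21.9 CPM under luciferase. Gene row 7376 stood at 1.498 ± 0.301 CPM under DUXC, 7.41 ± 1.65 under DUXC-ALT and 9.20 ± 0.870 under luciferase (SD, n = 3), and luciferase overlapped DUXC-ALT. Gene row 10248 had few reads, at 0.166 ± 0.0478 CPM under DUXC and 1.01 ± 0.291 CPM under DUXC-ALT (SD, n = 3), and a difference of -2.51 ± 0.46 (SE) in log2 units (adjusted p = 1.62e-06, edgeR). That p is also only a description, because row 10248 passed the filter on low counts through DUXC-ALT alone.

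Ordered by the difference in CPM in place of the fold, gene row 15472 came first. It stood at 5148, 5078 and 5083 CPM under DUXC, 11.05, 8.67 and 10.3 CPM under DUXC-ALT and 12.6 to 14.7 CPM under luciferase. DUXC exceeded DUXC-ALT by 9.01 ± 0.04 (SE) in log2 units (adjusted p = 3.14e-80, edgeR). Gene row 305 was abundant in every group, at 2104, 2060 and 2105 CPM under DUXC against 514.4, 512.2 and 514.5 CPM under DUXC-ALT and 555.8 to 575.8 CPM under luciferase.

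The remaining rows with a large gap in CPM were abundant in all groups and differed by less than 2-fold. Gene rows 9236 and 1325 were higher with DUXC, by 0.32 ± 0.02 and 0.39 ± 0.02 on the log2 scale (SE), and both isoforms lay below luciferase in them. In row 9236 the means were 13082 ± 220.4 CPM under DUXC, 10679 ± 78.5 CPM under DUXC-ALT and 19255 ± 354.6 CPM under luciferase (SD, n = 3). Gene rows 2812, 3593, 5349 and 10366 were lower with DUXC, with log2 differences of -0.72, -0.65, -0.42 and -0.38. Row 2812 stood at 6666, 6420 and 6697 CPM under DUXC and 11126, 11021 and 11045 CPM under DUXC-ALT. All of these differences passed the edgeR test, with adjusted p from 4.72e-42 in row 2812 to 3.64e-24 in row 9236. The row with the most luciferase reads, gene row 8962, did not pass it. It stood at 18975 ± 105.6 CPM under DUXC and 19440 ± 147.3 CPM under DUXC-ALT, or -0.01 ± 0.02 (SE) in log2 units (adjusted p = 0.625, edgeR), and its luciferase level was 28062 ± 744.1 CPM (SD, n = 3). In CPM, which scales by total gene counts alone, every DUXC library of row 8962 lay below every DUXC-ALT library. Gene row 10606, also among the 3 rows with the most luciferase reads, was higher with DUXC by 0.24 ± 0.02 (SE) in log2 units (adjusted p = 4.80e-17, edgeR).

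Rows with fewer than 7 luciferase reads could not be joined 1 to 1, but the tables still limit them, provided that no row was removed from 1 table alone for a reason other than its read total. A row of the DUXC table can correspond only to a row of the DUXC-ALT table that lies between the same joined neighbours and has the same 3 luciferase counts. Where there is none, its reads over luciferase and DUXC-ALT together were at most 6. The highest DUXC-ALT read number thus allowed was found for each of 2339 such gene rows. Of these, 305 had 1 CPM or more in each of the DUXC libraries (median 2.99 CPM), and 104 of the 305 had no luciferase read. The highest level allowed with DUXC-ALT had a median of 0.0893 CPM, or 5 reads over 3 libraries, and was under 0.5 CPM for 301 of the 305. At 10 CPM or more in every DUXC library there were 54 rows, and at 100 CPM or more 6.

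The highest of these rows reached the levels of well expressed rows. Gene row 14360 stood at 132.7, 132.0 and 128.6 CPM under DUXC and could have had at most 5 DUXC-ALT reads, or 0.0893 CPM. Gene rows 14871, 15093 and 4437 stood at 125.5 ± 1.91, 123.4 ± 3.24 and 113.7 ± 2.41 CPM under DUXC (SD, n = 3), with at most 5, 2 and 4 DUXC-ALT reads. Gene row 12947 was the highest, at 128.5, 132.4 and 132.8 CPM, and its limit was wider, at 77 DUXC-ALT reads or 1.38 CPM. Even at their limits all 5 rows lay far below the DUXC level with DUXC-ALT.

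The DUXC-ALT table held 892 gene rows with fewer than 7 luciferase reads, of which 2 reached 1 CPM in every DUXC-ALT library. Row 8680 of that table stood at 1.00, 1.68 and 1.82 CPM and row 12108 at 1.55, 1.39 and 1.18 CPM under DUXC-ALT. For each there was 1 possible partner in the DUXC table, row 9336 at 10.2 ± 1.52 CPM and row 12947 at 131.2 ± 2.41 CPM under DUXC (SD, n = 3). If those are the partners, both rows were higher with DUXC. The next row by DUXC-ALT level, row 5543 of that table, stood at 0.900, 0.347 and 0.856 CPM.

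**Figure D4:**
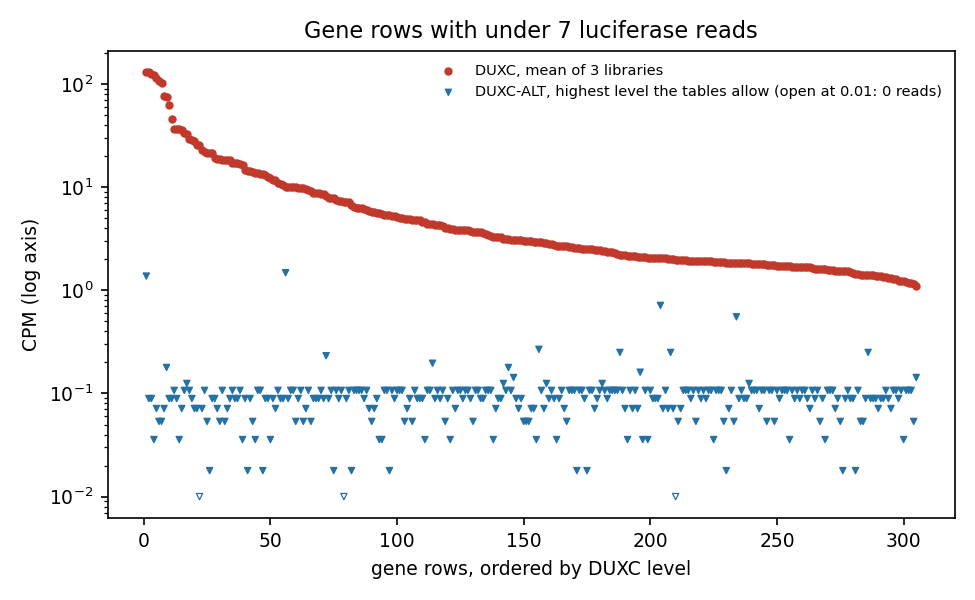
Mean DUXC level of the 305 gene rows with fewer than 7 luciferase reads that held 1 CPM or more in all DUXC libraries, ordered by that level, with triangles for the highest DUXC-ALT level the tables allow for the same row, in CPM on a log axis. The DUXC levels fall from 131.2 CPM, while the allowed DUXC-ALT levels lie under 0.5 CPM for 301 rows and reach 1.48 CPM at most.

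Repeats shifted as a whole between the isoforms, relative to genes. Repeat counts per 100 gene counts were 5.62, 5.80 and 4.91 with DUXC, 3.23, 3.52 and 2.81 with DUXC-ALT and 3.46 to 3.54 with luciferase. DUXC stood at 1.71 times DUXC-ALT, and the 3 DUXC libraries lay above the 3 DUXC-ALT libraries (2-sided exact permutation p = 0.1, the smallest possible; 0.122 adjusted over the 11 tests). The number of repeat rows at 10 CPM or more was 291.0 ± 2.65 under DUXC, 200.7 ± 3.79 under DUXC-ALT and 202.7 ± 7.77 under luciferase, and at 100 CPM or more 68.7 ± 3.06, 46.3 ± 0.577 and 46.0 ± 0 (SD, n = 3).

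A single repeat row held 27.5% to 36.2% of the repeat counts of the DUXC libraries and 32.6% to 42.0% of those of the DUXC-ALT libraries. Repeat row 325 stood at 20362, 20454 and 13494 CPM under DUXC, 12665, 14781 and 9156 CPM under DUXC-ALT and 15160 to 15979 CPM under luciferase. The isoforms overlapped in it, and replicate 3 was the lowest in both. In log2 units the difference came to 0.59 ± 0.27 (SE; adjusted p = 0.0995, edgeR), and DESeq2 gave an adjusted p of 0.0323. At each replicate number DUXC lay above DUXC-ALT, and the row passed the threshold in the edgeR fit with a replicate block. Without repeat row 325, repeat counts per 100 gene counts were 3.58, 3.76 and 3.56 under DUXC and 1.96, 2.04 and 1.89 under DUXC-ALT, a ratio of 1.85 (2-sided exact permutation p = 0.1; 0.122 adjusted over the 11 tests). The luciferase libraries then stood at 1.92 to 1.94, within the range of DUXC-ALT.

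Row by row, and scaled by genes, 509 of 598 tested repeat rows (85.1%) were higher and 13 (2.17%) lower with DUXC at an adjusted p under 0.05 (edgeR quasi-likelihood test), 87.3% in all. The median log2 difference was 0.90, with quartiles of 0.52 and 1.39, against a median of -0.01 over gene rows, which the scaling on genes centres near 0. By more than 2-fold, 180 rows (30.1%) were higher and 0 (0%) lower with DUXC in the test against that fold, where an unadjusted p under 0.05 also gave 0 lower rows in edgeR. Counted instead by a fitted difference past 2-fold at an adjusted p under 0.05, edgeR gave 256 rows higher and 1 lower. DESeq2 gave 259 and 1 by that measure. By groups that do not overlap in CPM, 83.8% of tested rows were higher and 2.51% lower. These directions hold relative to genes. Scaled by the repeats themselves, which moves the median log2 difference to 0.04, 208 of 603 rows (34.5%) were higher and 186 (30.8%) lower with DUXC, and the higher share of calls went from 97.5% to 52.8%.

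The repeat rows were ordered by their luciferase level in the same way. Of 121 tested repeat rows below 1 CPM in luciferase cells, 65 (53.7%) were higher with DUXC by more than 2-fold, with a median log2 difference of 1.62. The share was 28.0% of 271 rows from 1 to 10 CPM, 18.8% of 160 rows from 10 to 100 CPM and 19.6% of 46 rows at 100 CPM or more. The medians in those bands were 0.92, 0.70 and 0.72. As for genes, a row of the lowest band could pass the filter on low counts through the higher isoform alone, and the bands above 10 CPM were close to each other. The 180 rows past 2-fold had a median of 8.58 CPM under DUXC, 2.25 CPM under DUXC-ALT and 2.49 CPM under luciferase.

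**Figure D5:**
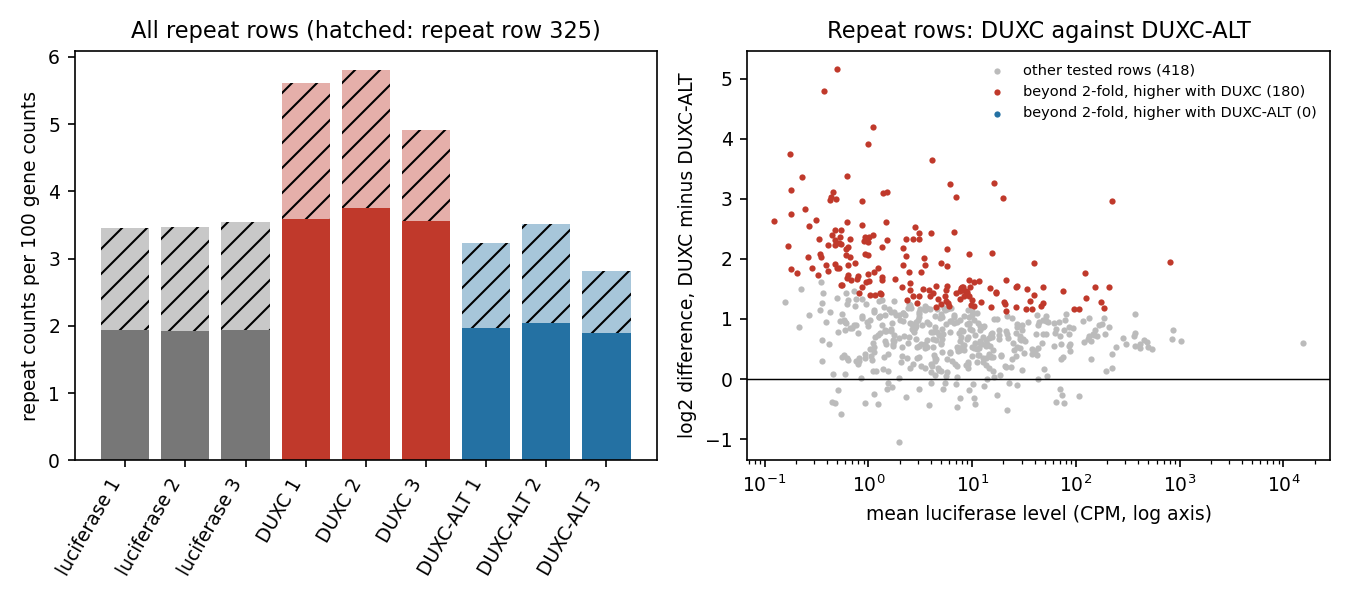
Left, repeat counts per 100 gene counts in each library, with the hatched part of a bar for repeat row 325; right, log2 difference between DUXC and DUXC-ALT for 598 tested repeat rows against their mean luciferase level in CPM on a log axis. The solid parts stand at 3.56 to 3.76 with DUXC and at 1.89 to 2.04 in the DUXC-ALT libraries, and most points on the right lie above 0.

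The largest repeat differences reached past 8-fold. Repeat row 492 stood at 8.13, 8.21 and 6.77 CPM under DUXC and 0.10, 0.231 and 0.321 CPM under DUXC-ALT, or 5.15 ± 0.25 (SE) in log2 units (adjusted p = 1.03e-26, edgeR). Row 492 passed the filter on low counts through DUXC alone, so its p is only a description. Repeat row 347 stood at 17.4, 17.2 and 18.7 CPM under DUXC and 1.05, 0.867 and 1.02 CPM under DUXC-ALT, a log2 difference of 4.19 ± 0.14 (SE). In row 347 luciferase, at 0.696 to 1.45 CPM, overlapped DUXC-ALT, whereas in row 492 the luciferase libraries, at 0.589, 0.464 and 0.437 CPM, lay above those of DUXC-ALT. Repeat row 580 was the most abundant of this set, at 44.3, 46.3 and 47.6 CPM under DUXC against 3.40, 3.64 and 4.17 CPM under DUXC-ALT and 3.16 to 4.66 CPM under luciferase. Repeat row 686 stood at 7.44 ± 1.36 CPM under DUXC and 0.273 ± 0.114 CPM under DUXC-ALT, and repeat row 408 at 2.64 ± 0.605 and 0.191 ± 0.138 CPM (SD, n = 3). The log2 difference of row 408 moved from 3.74 to 4.51 without DUXC-ALT replicate 1. In repeat row 238 the DUXC-ALT libraries lay below luciferase as in row 492, at 0.400, 0.520 and 0.428 CPM against 0.964, 0.986 and 1.02 CPM, while DUXC stood at 6.84, 6.91 and 6.41 CPM. In all, 17 repeat rows were higher with DUXC by more than 8-fold.

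The 13 repeat rows lower with DUXC differed by little. Repeat row 3 was the only one past 2-fold in its estimate, at 1.24, 1.40 and 1.32 CPM under DUXC and 2.80, 3.41 and 2.14 CPM under DUXC-ALT, or -1.04 ± 0.21 (SE) in log2 units (adjusted p = 1.56e-05, edgeR), and it did not pass the test against 2-fold (edgeR adjusted p = 0.466). The next, repeat row 20, stood at 18.2, 17.3 and 19.8 CPM under DUXC, 27.3, 26.1 and 26.8 CPM under DUXC-ALT and 20.9 to 22.5 CPM under luciferase, or -0.51 ± 0.08 (SE) in log2 units (adjusted p = 1.21e-07, edgeR). DUXC lay below and DUXC-ALT above luciferase in row 20. Repeat rows 669, 124, 65 and 200 had log2 differences of -0.46, -0.44, -0.41 and -0.39. Repeat row 200, the most abundant of them, stood at 62.0 ± 4.28 CPM under DUXC and 82.9 ± 3.59 CPM under DUXC-ALT (SD, n = 3).

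Among the 4 repeat rows with the most luciferase reads, rows 314 and 643 passed the main edgeR test. Rows 325 and 648 did not pass that test, which took no account of replicate number. In the edgeR fit with a replicate block row 325 passed and row 648 did not. Repeat row 648 stood at 1706, 1932 and 1534 CPM under DUXC and 994.0, 1644 and 760.5 CPM under DUXC-ALT, so the groups overlapped (edgeR adjusted p = 0.140). Without DUXC-ALT replicate 2 the log2 difference of that row moved from 0.63 to 0.99 (edgeR adjusted p = 0.0104). In both isoforms replicate 2 was the highest and replicate 3 the lowest. Repeat row 314 stood at 1495, 1547 and 1502 CPM under DUXC and 893.2, 911.4 and 832.9 CPM under DUXC-ALT, or 0.81 ± 0.05 (SE) in log2 units (adjusted p = 2.26e-23, edgeR). Repeat row 643 stood at 1464, 1242 and 1472 CPM under DUXC and 930.6, 880.7 and 870.7 CPM under DUXC-ALT, or 0.66 ± 0.05 (SE) in log2 units (adjusted p = 3.82e-18, edgeR). Scaled by repeats, which lowers all repeat rows together, the differences in these 4 rows lay below 0 and none of the 4 passed the edgeR test.

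Of 63 repeat rows with fewer than 7 luciferase reads in the DUXC table, 1 reached 1 CPM in every DUXC library. Repeat row 235 stood at 47.8, 47.0 and 47.5 CPM under DUXC, had 3 luciferase reads and could have had at most 3 DUXC-ALT reads. The next, repeat row 5, stood at 1.35, 1.08 and 0.719 CPM under DUXC, also with at most 3 DUXC-ALT reads. Of 29 such rows in the DUXC-ALT table the highest, its row 14, stood at 0.243 ± 0.161 CPM (SD, n = 3).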

How the data were processed

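Polyadenylated RNA from the 9 libraries used here was sequenced after TruSeq RNA v2 preparation, per the labels' protocols. The submitters' processing notes name canFam3, CASAVA, TopHat2 2.1.0, Bowtie2 2.2.6 and DESeq2. How reads were counted, with regard to strand and to multiple matches, is not given in the sources used here, so near-identical or overlapping rows may share reads. The authors deposited raw read counts per gene row and per repeat row. Rows with fewer than 7 reads over the 6 libraries of a table are absent from it.

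The test was that of edgeR 4.0.16 under R 4.3.3 (TMM on gene totals, filterByExpr, robust quasi-likelihood fit, glmTreat for 2-fold, Benjamini-Hochberg adjustment over all tested rows at 0.05), checked on simulated data. The fit held the 3 DUXC and 3 DUXC-ALT libraries. Repeat rows took effective library sizes from genes. CPM used total gene counts throughout. DESeq2 1.42.0 and the other settings were alternatives. The rows and limits were chosen with earlier results of these data known.

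Named gene rows were the 8 largest log2 differences per direction among rows past the test, without overlap and at 1 CPM or more in the higher group, the 4 largest CPM differences per direction and the 3 with the most luciferase reads. Named repeat rows were the 6 largest per direction with a mean of at least 20 counts and the 4 with the most luciferase reads. Rows under 7 luciferase reads were named by level, 5 for DUXC and 3 for DUXC-ALT. Other rows named were picked after their values were seen.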

Additional observations from a re-analysis of the deposited data

How the results depend on the processing

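The counts of gene rows that differed, with and without the 2-fold limit, stayed within 1.5 times under DESeq2 size factors, total gene counts, no filter on low counts, rows with unique luciferase counts, luciferase libraries in the fit and the replicate block. DESeq2 gave 4727 gene rows higher and 4583 lower with DUXC. Same-numbered libraries had deviations that correlated at 0.0180, -0.0230 and -0.0333 across gene rows and -0.0172, 0.0724 and -0.0539 across repeat rows, so the numbers were not taken as pairs, although the order of the 3 libraries in total repeat counts per 100 gene counts and in repeat rows 325 and 648 was the same in both isoforms. The fit with the replicate block gave 5015 gene rows higher and 5054 lower, and 504 and 13 repeat rows. Leaving out 1 library gave 4867 to 4972 gene rows higher and 4924 to 4990 lower, 1351 to 1394 and 203 to 219 beyond 2-fold, 494 to 513 and 12 to 14 repeat rows, and 168 to 186 and 0 repeat rows beyond 2-fold. The ratio of repeat counts per 100 gene counts was then 1.61 to 1.80, and 1.81 to 1.88 without repeat row 325.

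TMM on the repeats gave 208 higher and 186 lower repeat rows, 40 and 9 of them in the test beyond 2-fold, since that scaling removes a shift common to repeats. Under it the log2 differences of repeat rows 325, 648, 314 and 643 were -0.27, -0.23, -0.051 and -0.19. Gene row 8962 turned to 0.011 with rows of unique luciferase counts only. Repeat row 325 passed the threshold with luciferase libraries in the fit (adjusted p = 0.0429), in DESeq2 (adjusted p = 0.0323) and with the replicate block (edgeR adjusted p = 4.10e-33), and repeat row 648 without DUXC-ALT replicate 2, at 0.99 on the log2 scale (edgeR adjusted p = 0.0104). The value with the replicate block rests on 6 libraries whose numbers were not taken as pairs.

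A minimum of 0.5 or 2 CPM gave 477 or 181 gene rows under 7 luciferase reads with DUXC, against 305, and 0 at 2 CPM with DUXC-ALT. Leaving out 1 library gave 324 to 328 and 2. Low DUXC-ALT counts limit the largest folds. Leaving out 1 library moved 4 of 26 named gene rows and 1 of 16 named repeat rows by over 1.5-fold. The largest shift of each was upward and is given beside it. Other such fits went below the main one, to log2 differences of 11.84 in gene row 7814 and 10.31 in row 5497. The lowest values were 9.86 in gene row 1197, 9.75 in gene row 2673 and 3.44 in repeat row 408.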

Other observations

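Rows that were higher with DUXC by more than 2-fold were also looked at by their place in table order, after the data were seen and with no test. Among gene rows the next tested row was also in the set for 183 of 1405 rows (13.0%), against 10.7% of all tested rows. For repeat rows it was so for 73 of 180 (40.6%), against 30.1%. Among the 131 gene rows past 32-fold it was so for 2 (1.53%), against 0.996% of tested rows, and among the 219 rows lower with DUXC by more than 2-fold for 4 (1.83%), against 1.67%. What the order of rows stands for is not given in the sources used here, and reads shared between neighbouring rows were not tested.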
